A study of Mus musculus with 3 samples.

Results

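The 44 genes described here encode the constitutive subunits of the mouse proteasome, its activators and inhibitor, and its dedicated assembly chaperones. They were taken by symbol from 26840 genes named on the array, as every Psma to Psmg gene with a number, and the inducible subunits Psmb8, Psmb9 and Psmb10 were left out. RNA came from RAW 264.7 cells, an established mouse macrophage line, in 3 conditions with 1 array each. In the LPS condition the cells received only 50 ng/mL of lipopolysaccharide (LPS), the TLR4 agonist of Gram-negative bacteria. In the CRL1505 + LPS and CRL1506 + LPS conditions the cells were first kept for 24 h with lactobacilli at 50000000 cells/mL, either Lacticaseibacillus rhamnosus CRL1505 or Lactiplantibacillus plantarum CRL1506, and were washed before the same LPS dose. LPS was thus shared by all 3 arrays, which leaves its own effect outside these comparisons, and the time after LPS is 12 h in the study design and 3 h in the sample descriptions.

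The proteasome is the protease that removes ubiquitin-tagged proteins. Its 20S core is a barrel of stacked rings, in which the outer alpha rings gate the entry and the inner beta rings carry the catalytic sites. The 19S regulatory particle binds ubiquitin chains, removes them and uses a ring of ATPases to unfold the substrate and thread it into the core, whereas other caps open the core without ubiquitin. In macrophages exposed to interferon, the inducible subunits replace the constitutive catalytic ones and give the immunoproteasome, which produces peptides for presentation on MHC class I.

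With 1 array per condition no test was possible, and a difference has no replicate check. The values are 1-colour (Cy3) intensities. A level is given as the intensity divided by the 75th percentile of its array, and a log2 ratio is the difference of 2 such levels on the log2 scale. Levels were not compared between different genes, because each probe binds with its own efficiency. The 75th percentile was an intensity of 743.1 with LPS, 517.0 with CRL1505 + LPS and 697.9 with CRL1506 + LPS, and between 48.5% and 55.3% of gene spots were well above background. The CRL1505 + LPS array was on another slide and in another scan run than the other 2 arrays, so that this strain, the slide and the scan cannot be told apart. Over probes spotted repeatedly, the median SD of a log2 ratio was 0.051 for CRL1505 + LPS against LPS (130 probes) and 0.044 for CRL1506 + LPS against LPS (144 probes), which measures the array surface and not the cultures. Different probes of the same member differed more, with a median SD of 0.17 and 0.16 over 25 members. All 7 macrophage markers were well above background on every array, whereas of 3 T cell markers 2 were, of 3 B cell markers 1 was, of 3 fibroblast markers between 0 and 2 were, and of 3 epithelial markers none was. Summed intensities of the markers were not divided by the 75th percentile and so carry the brightness of each array. For the fibroblast markers they were 66.6, 105.2 and 167.5 with LPS, CRL1505 + LPS and CRL1506 + LPS. For the macrophage markers they were 514702, 346025 and 392079. After scaling, the 7 macrophage markers had a median log2 ratio of 0.15 with CRL1505 + LPS, with 5 above and 2 below 0. They ran from -1.47 for Csf1r to 2.40 for Fcgr1. With CRL1506 + LPS their median was -0.19, with 3 above and 4 below 0. The part of other cell types in the results was not tested.

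A signal well above background on all 3 arrays was found for 42 of the 44 genes. The exceptions were Psma8, the testis-specific alpha subunit, and Psmb11, the catalytic subunit of cortical thymic epithelium. Psma8 gave 0.00887, 0.0258 and 0.0094 times the 75th percentile with LPS, CRL1505 + LPS and CRL1506 + LPS, and Psmb11 gave 0.00956, 0.0127 and 0.0267 times. Neither gene was well above background on any array, so these values have no order. The other 42 genes were compared in each pair of arrays.

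**Figure D1:**
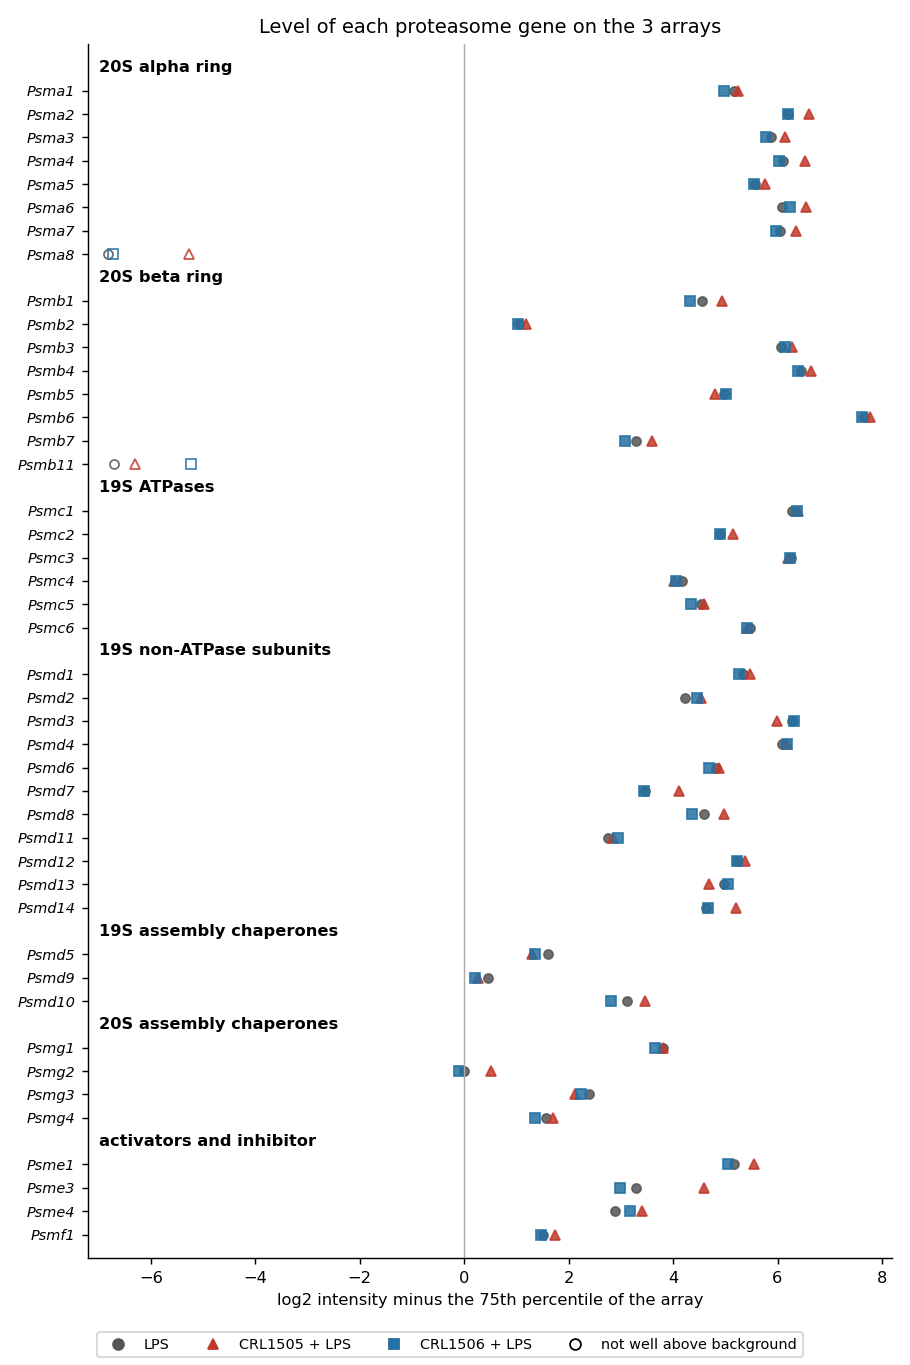
Level of each of the 44 genes on the 3 arrays, as log2 intensity minus the 75th percentile of the array, so that 0 is the 75th percentile. Circles are LPS, triangles CRL1505 + LPS and squares CRL1506 + LPS, and open symbols are not well above background (Psma8 and Psmb11). Only the symbols within a row can be compared, and in most rows they lie close together, with Psme3 the widest of the 42 measured genes.

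As a group, the constitutive proteasome genes stayed close to the level of LPS alone with either strain. With CRL1505 + LPS, 1 of 42 genes, Psme3, was at least 2-fold higher and 0 were at least 2-fold lower, beside 9.93% and 8.41% of all genes compared. Psmd7 was the other gene at least 1.5-fold higher, and no gene was 1.5-fold lower, beside 19.1% and 17.2% of all genes. With CRL1506 + LPS, 0 of 42 genes reached 2-fold in either direction, beside 9.2% of all genes, and 0 reached 1.5-fold, beside 20.9%. These shares include dim genes. Among the genes at least as bright as the median proteasome gene, 12.6% of 1156 were past 2-fold and 27.3% past 1.5-fold with CRL1505 + LPS, and 1.89% of 1112 and 6.92% with CRL1506 + LPS. Both comparisons use the same LPS array, so that an error of this array would enter both. In RNA of a whole culture, fewer cells of a kind and less RNA per cell cannot be told apart.

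The log2 ratios of the 42 genes ran from -0.30 to 1.29 with CRL1505 + LPS, with a median of 0.16 and an SD of 0.30. Over the 13238 genes well above background on both arrays the median was 0.06 and the SD 0.75. With CRL1506 + LPS the 42 genes ran from -0.32 to 0.29, with a median of -0.06 and an SD of 0.14, beside a median of -0.06 and an SD of 0.54 over 14401 genes. In both comparisons the proteasome genes were thus spread less widely than all genes. Most of them are bright, and bright genes were spread less widely as well, with an SD of 0.61 and 0.32 among the 1156 and 1112 genes at least as bright as the median proteasome gene. These bright genes had a median log2 ratio of 0.19 with CRL1505 + LPS, which is above the 0.16 of the proteasome genes.

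**Figure D2:**
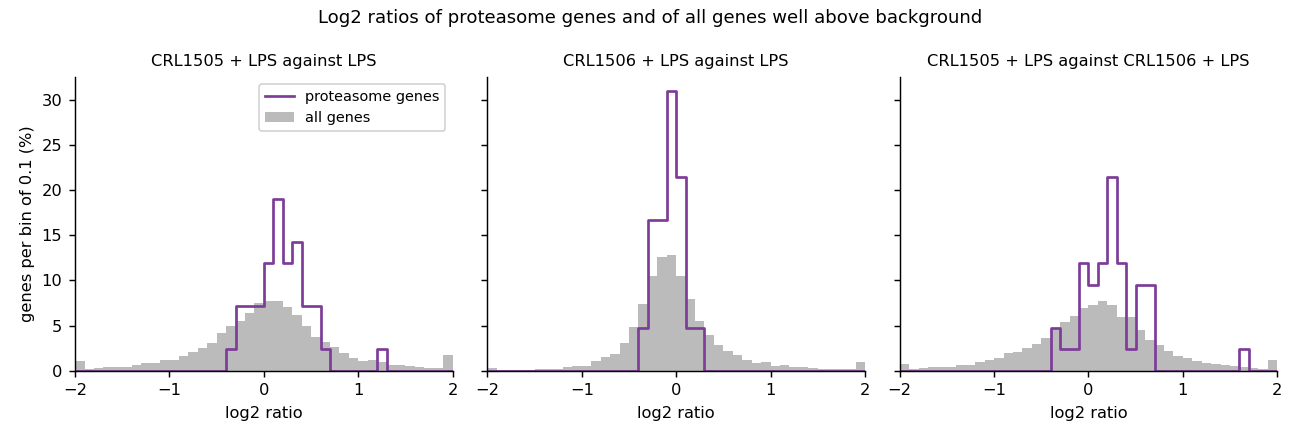
Distribution of log2 ratios in the 3 comparisons, as the percentage of genes in bins 0.1 wide. Grey bars are all genes well above background on both arrays and the purple line is the 42 proteasome genes; ratios beyond 2 or -2 are counted in the end bins. The proteasome genes form a narrow peak inside the distribution of all genes, and Psme3 is the separate step at the right in the first and the last panel.

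In the 20S alpha ring, all 7 measured genes had a log2 ratio above 0 with CRL1505 + LPS, from 0.08 for Psma1 to 0.46 for Psma6, with a median of 0.31, and none reached 1.5-fold. Above 0 in the same comparison were 7203 of all 13238 genes, and 819 of the 1156 genes at least as bright as the median proteasome gene. Under spike-in scaling all 7 alpha ratios were below 0, from -0.43 for Psma1 to -0.04 for Psma6. Psma6 gave 68.0 times the 75th percentile with LPS, 93.7 times with CRL1505 + LPS and 75.7 times with CRL1506 + LPS. Psma4 gave 69.1, 91.5 and 65.5 times in the same order, and its 4 probes gave log2 ratios from 0.30 to 0.51 with CRL1505 + LPS. In both genes the CRL1505 + LPS array was the highest of the 3. With CRL1506 + LPS the alpha genes ran from -0.20 to 0.15, with a median of -0.08. Relative to the median of all genes, the alpha median with CRL1505 + LPS was 0.25 and remained between 0.12 and 0.27 under the 12 alternative settings, with 5 to 7 of the 7 genes above the median of all genes.

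The 20S beta ring holds the catalytic subunits. Psmb5, the chymotrypsin-like subunit, gave 31.6 times the 75th percentile with LPS, 27.7 times with CRL1505 + LPS and 32.5 times with CRL1506 + LPS. Its log2 ratio was -0.19 with CRL1505 + LPS and 0.04 with CRL1506 + LPS, so that the CRL1505 + LPS array was the lowest. Psmb6, the caspase-like subunit, gave 200.4, 218.4 and 197.0 times, with log2 ratios of 0.12 and -0.02. Psmb7, the trypsin-like subunit, gave 9.8, 12.0 and 8.43 times, with log2 ratios of 0.30 and -0.22. The 3 catalytic subunits therefore did not share a direction with CRL1505 + LPS, and every one of these ratios was smaller than 1.5-fold.

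The other beta genes are structural. Psmb1 gave 23.5 times the 75th percentile with LPS, 30.5 times with CRL1505 + LPS and 19.9 times with CRL1506 + LPS, with log2 ratios of 0.38 and -0.24. Psmb3 and Psmb4 had log2 ratios of 0.21 and 0.18 with CRL1505 + LPS and of 0.08 and -0.06 with CRL1506 + LPS. The probes of a gene did not always agree in size. For Psmb4 the bright probe gave 0.18 with CRL1505 + LPS and the dimmer one 0.69. For Psmb2, whose brightest probe was designed on another transcript than the RefSeq mRNA, that probe gave 0.14 and -0.01 with the 2 strains, whereas the 2 RefSeq probes gave 0.43 and 0.45 with CRL1505 + LPS and -0.39 and -0.31 with CRL1506 + LPS.

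The inducible counterparts of the catalytic subunits were set beside them. Psmb8, the counterpart of Psmb5, had log2 ratios of 0.43 with CRL1505 + LPS and 0.40 with CRL1506 + LPS. Psmb9, the counterpart of Psmb6, had 0.77 and 0.05, and Psmb10, the counterpart of Psmb7, had 1.10 and 0.08. Within the CRL1505 + LPS comparison each inducible subunit exceeded its constitutive counterpart, by 0.62 for Psmb8 over Psmb5, 0.65 for Psmb9 over Psmb6 and 0.80 for Psmb10 over Psmb7 on the log2 scale. With CRL1506 + LPS the same differences were 0.37, 0.07 and 0.30. A difference of 2 ratios within the same pair of arrays does not depend on the factor that scales an array. It still depends on the probes, and the Psmb5 probe held 55.0% G and C, the top of the range of these genes. The part of this in the differences was not tested.

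The 19S ATPases form the unfolding ring. The 6 genes Psmc1 to Psmc6 had log2 ratios from -0.14 to 0.26 with CRL1505 + LPS, 3 above and 3 below 0, and from -0.19 to 0.09 with CRL1506 + LPS. Some signs depended on the probe. Psmc6 gave -0.06 with CRL1505 + LPS, but its second probe, designed on another transcript, gave 0.86, and 0.48 with CRL1506 + LPS. Psmc1 and Psmc2 lay above 0 with CRL1505 + LPS, at 0.12 and 0.26, but their other-transcript probes gave -0.06 and -0.23. Psmc3, for example, gave 76.6, 73.2 and 75.2 times the 75th percentile with LPS, CRL1505 + LPS and CRL1506 + LPS, log2 ratios of -0.07 and -0.03. Its other 2 RefSeq probes gave -0.31 and -0.17 with CRL1505 + LPS and -0.15 and -0.34 with CRL1506 + LPS. The group median was 0.00 with CRL1505 + LPS and -0.05 with CRL1506 + LPS.

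Among the 11 non-ATPase subunits of the 19S particle, 9 had a log2 ratio above 0 with CRL1505 + LPS and 2 below, with a median of 0.13. In that comparison 819 of the 1156 genes at least as bright as the median proteasome gene lay above 0. Psmd7, a scaffold protein that pairs with the deubiquitinase of the lid, gave 11.0 times the 75th percentile with LPS, 17.4 times with CRL1505 + LPS and 10.8 times with CRL1506 + LPS. Its log2 ratios were 0.66 and -0.02, so that the LPS and CRL1506 + LPS arrays lay together and the CRL1505 + LPS array above them. A second Psmd7 probe, designed on another transcript, went the other way, with 1.5, 1.17 and 2.25 times and log2 ratios of -0.36 and 0.58. Psmd14, that deubiquitinase itself, fell just short of 1.5-fold and was named after its values were seen. It gave 24.6, 36.7 and 25.3 times, a log2 ratio of 0.58 with CRL1505 + LPS, and its second measured probe gave 0.39.

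At the lower end were Psmd3 and Psmd13, both structural subunits of the lid. Psmd3 gave 77.7 times the 75th percentile with LPS, 63.6 times with CRL1505 + LPS and 79.6 times with CRL1506 + LPS, and Psmd13 gave 31.6, 25.7 and 33.1 times. Their log2 ratios with CRL1505 + LPS were -0.29 and -0.30, and the second RefSeq probe of each gave -0.24 and -0.41. Subunits of the same particle therefore lay on both sides of 0 with CRL1505 + LPS. With CRL1506 + LPS the 11 genes ran from -0.22 to 0.22, with a median of 0.03. The ubiquitin receptor Psmd4 gave 67.6, 72.2 and 72.3 times, with log2 ratios of 0.09 and 0.10. Its second RefSeq probe gave 0.13 and 0.00, and a dim probe for another transcript gave 0.76 and 0.08.

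**Figure D3:**
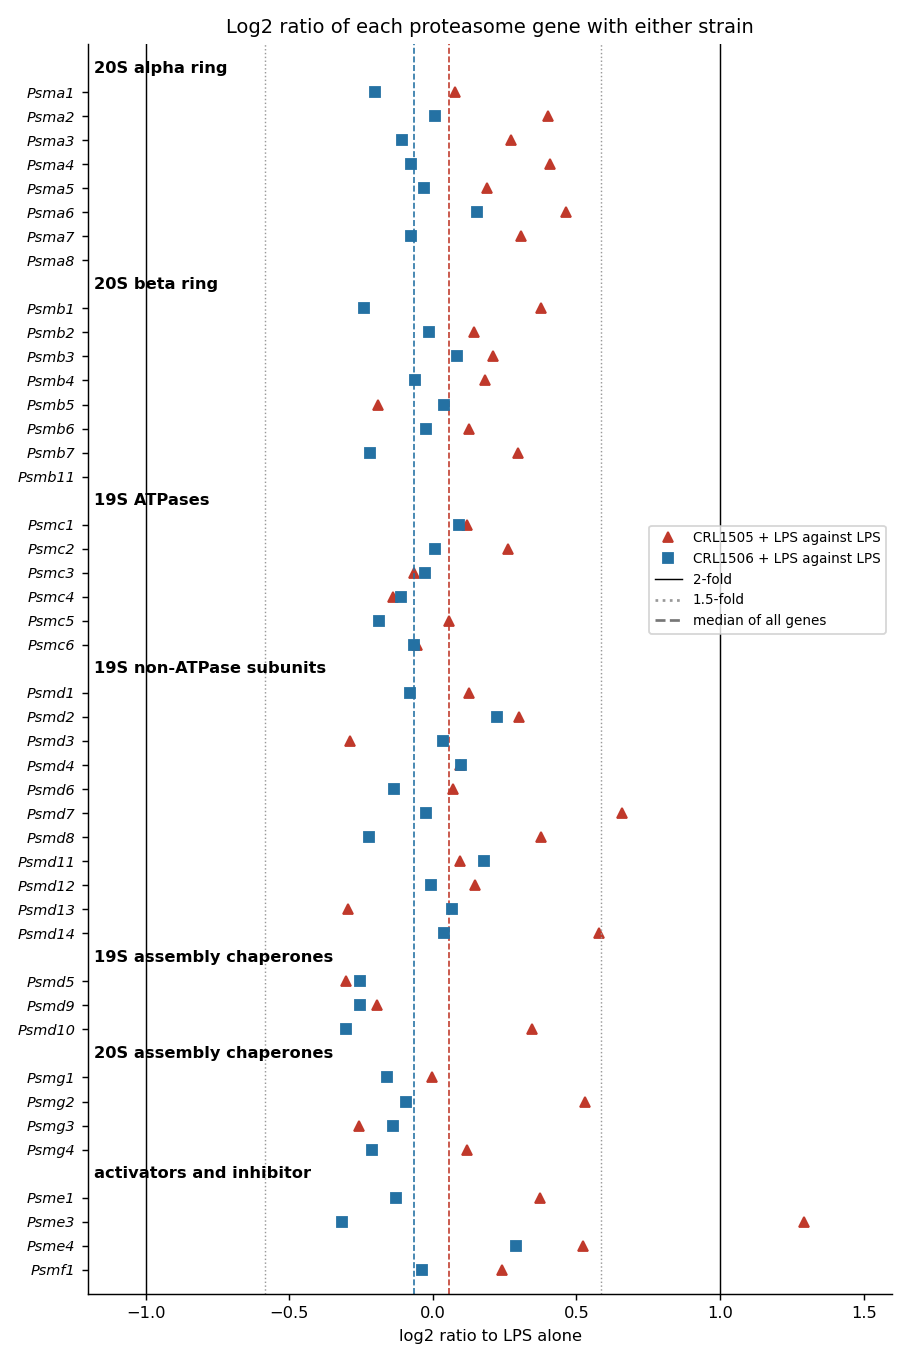
Log2 ratio to LPS alone of the 42 measured genes, grouped by role, with triangles for CRL1505 + LPS and squares for CRL1506 + LPS. Dashed lines are the medians of all genes (0.06 and -0.06), dotted lines 1.5-fold and solid lines 2-fold; Psma8 and Psmb11 have no symbol. All alpha ring and all activator and inhibitor genes have their triangle right of 0, the ATPases lie around 0, and Psme3 is the only gene past 2-fold. Of all 13238 genes well above background on both arrays, 7203 lay above 0 with CRL1505 + LPS.

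The activators and the inhibitor had the highest median of the groups with CRL1505 + LPS, 0.45 over 4 genes and 0.37 without Psme3, and -0.08 with CRL1506 + LPS. Psme1, a subunit of the interferon-inducible 11S cap, gave 36.1 times the 75th percentile with LPS, 46.8 times with CRL1505 + LPS and 33.0 times with CRL1506 + LPS, with log2 ratios of 0.37 and -0.13. Psme4, the large single-chain cap that acts in the nucleus, gave 7.4, 10.6 and 9.03 times, with log2 ratios of 0.52 and 0.29, and its other RefSeq probe gave 0.18 and 0.60. The CRL1505 + LPS array was the highest for Psme1 on its probe, whereas for Psme4 the order of the strains depended on the probe. Under spike-in scaling the Psme1 ratio of CRL1505 + LPS to LPS was -0.13. Psmf1, which inhibits the core, gave 2.83, 3.34 and 2.76 times, with log2 ratios of 0.24 and -0.04, and 0.00 and -0.16 by its other measured probe.

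Psme2, the partner of Psme1 in the 11S cap, has no probe under its own symbol. The 2 probes named after its paralog Psme2b also list RefSeq transcripts of Psme2, so that the 2 genes cannot be told apart. They gave log2 ratios of 0.78 and 1.06 with CRL1505 + LPS and of 0.06 and 0.17 with CRL1506 + LPS, beside 0.37 and -0.13 for Psme1.

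Psme3, which forms the nuclear cap that works without ubiquitin and is not induced by interferon, was the only gene past 2-fold. It gave 9.8 times the 75th percentile with LPS, 24.0 times with CRL1505 + LPS and 7.87 times with CRL1506 + LPS. This was 2.45-fold higher with CRL1505 + LPS (log2 ratio 1.29) and 1.25-fold lower with CRL1506 + LPS (log2 ratio -0.32). The second Psme3 probe, designed on an Ensembl transcript, did not share the pattern. It gave 1.57, 1.42 and 1.93 times, with log2 ratios of -0.15 and 0.30, and on the mean of both probes the log2 ratio with CRL1505 + LPS was 0.57.

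The first bases of both 60-base probes are shown because the 2 probes differ in composition. In the numbering of the array annotation, whose genome build the files do not name, the RefSeq probe lies at chr11:101184289-101184348 and the other at chr11:101178390-101178649.
Psme3 RefSeq probe, bases 1 to 30: tgtgtgcacatacacacgtgcacatgtgtg
Psme3 other probe, bases 1 to 30: cttctaattataatttcaaggttgattctt
The RefSeq probe is largely a run of alternating TG and CA steps. Of its 59 dinucleotide steps, 42 are TG, GT, CA or AC, against a median of 15 over all 56605 gene probes and at most 27 in any other proteasome probe. As many such steps, a limit set after the value of Psme3 was seen, were found in 8 gene probes on the array. The 7 of them that are not Psme3 had log2 ratios from 0.15 to 1.05 with CRL1505 + LPS, all above 0, with a median of 0.88, beside a median of 0.05 over all 24617 probes compared. With CRL1506 + LPS their median was -0.03, as was that of all probes. Probes of this composition for other genes thus also lay high on the CRL1505 + LPS array, and the part of this in the Psme3 value was not tested.

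The assembly chaperones showed no common direction with CRL1505 + LPS. Psmg1 and Psmg2, which pair to build the alpha ring, gave 14.1, 14.0 and 12.6 times and 0.992, 1.43 and 0.93 times the 75th percentile with LPS, CRL1505 + LPS and CRL1506 + LPS. The log2 ratio with CRL1505 + LPS was 0.00 for Psmg1 and 0.53 for Psmg2, so that this pair of partners differed. Psmg3 and Psmg4, the second such pair, gave 5.21, 4.36 and 4.73 times and 2.98, 3.23 and 2.57 times, with log2 ratios of -0.26 and 0.12. With CRL1506 + LPS all 4 lay below 0 on the probe that stands for each, from -0.21 to -0.09, as did 8381 of all 14401 genes. This depended on the probe, because the second probe gave 0.65 for Psmg2 and 0.55 for Psmg3, and -0.28 for Psmg1. The chaperones of the ATPase ring were Psmd5, Psmd9 and Psmd10, with log2 ratios of -0.30, -0.20 and 0.34 with CRL1505 + LPS and of -0.25, -0.25 and -0.30 with CRL1506 + LPS. Psmd10, also known as the oncoprotein gankyrin, gave 8.63, 11.0 and 7.0 times. These 3 genes were the only group below the median of all genes with CRL1506 + LPS in every member under every setting tried.

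The arrays of the 2 strains were then compared with each other. Of the 42 genes, 1 was at least 2-fold higher with CRL1505 + LPS than with CRL1506 + LPS and 0 were 2-fold lower, beside 9.02% and 7.47% of all genes. That gene was Psme3, 3.05-fold higher (log2 ratio 1.61) on its repeat-rich probe and 0.44 lower on the log2 scale on the other. At 1.5-fold, 6 genes were higher and 0 lower, beside 19% and 17.3% of all genes. These shares include dim genes. Of the 1128 genes at least as bright as the median proteasome gene, 114 were 2-fold higher and 13 lower, and at 1.5-fold 258 and 40. Besides Psme3, the 5 proteasome genes past 1.5-fold were Psmd7 (log2 ratio 0.68), Psmd10 (0.65), Psmg2 (0.62), Psmb1 (0.62) and Psmd8 (0.60). Psmd8, a lid subunit, gave 24.1, 31.3 and 20.7 times the 75th percentile with LPS, CRL1505 + LPS and CRL1506 + LPS. On the probe that stands for each of these 5 genes the CRL1505 + LPS array was the highest of the 3 in the main setting. Under spike-in scaling it lay below LPS for Psmd10 (-0.16), Psmb1 (-0.13) and Psmd8 (-0.13). It still lay above CRL1506 + LPS there, by 0.26, 0.23 and 0.21. For Psmd7 and Psmg2 the ratio to LPS stayed above 0 in every setting, with lowest values of 0.15 and 0.02. The log2 ratio of CRL1506 + LPS to LPS was -0.30 for Psmd10, -0.24 for Psmb1 and -0.22 for Psmd8. For Psmd7 (-0.02) and Psmg2 (-0.09) these 2 arrays lay together. For Psmd7 and Psmg2 the CRL1505 + LPS array was not the highest on the second probe, which gave -0.94 and -0.36 between the strains. The mean over probes was -0.13 for Psmd7 and 0.13 for Psmg2. The other 3 genes have 1 probe each. Psmb2, Psmb4 and Psmd4 were at least 1.5-fold higher only on probes that do not stand for them. The 2 RefSeq probes of Psmb2 gave 0.82 and 0.76, beside 0.15 on its brightest probe. For Psmb4 the dimmer probe gave 0.93 and the bright one 0.24. A dim Psmd4 probe for another transcript gave 0.69, beside -0.003 on its brightest probe. The lowest of the 65 RefSeq probes gave -0.42, whereas 4 of 11 other-transcript probes were at least 2-fold lower, beside 24.3% of such probes over all genes. The median of the 42 genes was 0.23, beside 0.09 for all genes and 0.25 for the 1128 genes at least as bright as the median proteasome gene.

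The size of these medians depended on how the arrays were scaled. Against the main setting, the median of all genes with CRL1505 + LPS moved by 0.30 when arrays were scaled to their median and by -0.51 when scaled to the spike-in probes, and the proteasome genes moved with it. Read against the median of all genes, the proteasome median was 0.11 with CRL1505 + LPS in the main setting, but 0.02 after quantile normalization, 0.00 after cyclic loess and 0.03 in the deposited normalized table. With CRL1506 + LPS it was 0.00 in the main setting and 0.12, 0.11 and 0.10 under the same 3 normalizations. A difference of the whole group from all genes, in either comparison, was therefore not separable from the choice of normalization.

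**Figure D4:**
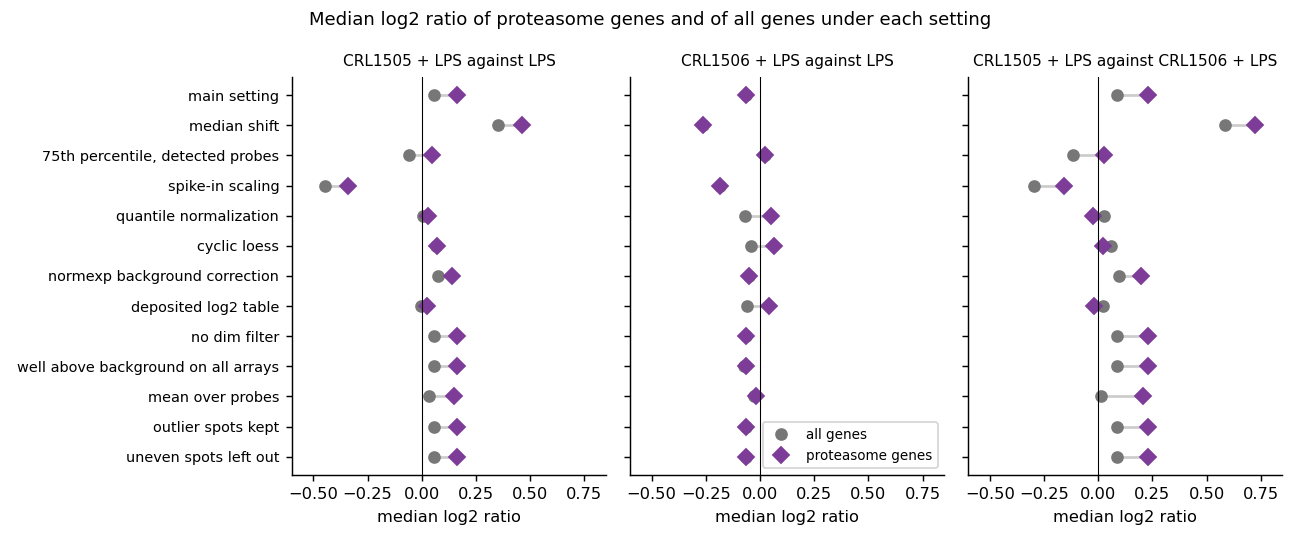
Median log2 ratio of the 42 proteasome genes (purple diamonds) and of all genes well above background (grey circles) under the main setting and 12 alternatives, in the 3 comparisons. Both medians move together between scalings, and the distance between them, 0.11 in the main setting of the first panel, ranges from 0.00 to 0.11 there.

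Base composition moved with the CRL1505 + LPS ratios. Over the 42 genes, whose probes held from 35.0% to 55.0% G and C, the log2 ratio with CRL1505 + LPS and the GC content of the probe had a Pearson r of -0.45 and a Spearman rho of -0.43, as a description across genes that share the same 2 arrays. Without Psme3 r was -0.59, and over all 13238 genes it was -0.15. Genes with a probe below 45% GC had a median of 0.21 (23 genes) and those at 50% or more, which were Psmb5, Psmc4, Psmd3, Psmd9 and Psmg3, a median of -0.20 (5 genes). The alpha ring had the lowest median probe GC of the groups, 40.0%, and the ATPases had 41.7%. With the median of all genes of like GC taken off, the alpha median was 0.24 and the ATPase median -0.04 with CRL1505 + LPS. With the median of all genes taken off instead, they were 0.25 and -0.06. With CRL1506 + LPS r was 0.04. The part of base composition in single genes was not tested.

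Of the 86 probes for these genes, 18 were designed on transcripts other than a RefSeq mRNA, and they behaved unlike the RefSeq probes. With CRL1506 + LPS, 12 of them could be compared and had a median log2 ratio of 0.51, whereas 65 RefSeq probes had a median of -0.08. Probes of the 3 genes that follow were at least 2-fold higher, while the RefSeq probe of the same gene was level. Psma3 gave 0.441 times the 75th percentile with LPS, 0.41 times with CRL1505 + LPS and 1.07 times with CRL1506 + LPS on its other-transcript probe, a log2 ratio of 1.28 with CRL1506 + LPS, beside -0.11 on the RefSeq probe. Psmc2 gave 0.0863, 0.0734 and 0.226 times, a log2 ratio of 1.39, beside 0.01. Psmd1 gave 0.204, 0.169 and 0.41 times, a log2 ratio of 1.01, beside -0.08. In all 3 the CRL1506 + LPS array was high and the other arrays lay together.

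The start of each of these probes and of the RefSeq probe of the same gene is printed to show that the 2 probes read different stretches.
Psma3 RefSeq probe, bases 1 to 30: ggctagcaccatggactatatatacccact
Psma3 other probe, bases 1 to 30: actaacacaggtccacacacttaaatacaa
Psmc2 RefSeq probe, bases 1 to 30: acttcctgtgcttttgtaacttgttgccac
Psmc2 other probe, bases 1 to 30: aataaatcaaagtcagatcattaggcttgg
Psmd1 RefSeq probe, bases 1 to 30: ccaagtctttggttaagaagatatacgact
Psmd1 other probe, bases 1 to 30: tcacagttatctctagttaactctagttct
In the numbering of the array annotation, the probes of Psma3 lie at chr12:72095431-72095490 and chr12:72080515-72080574, those of Psmc2 at chr5:21309546-21309602 and chr5:21303917-21303976, and those of Psmd1 at chr1:88035777-88035836 and chr1:87964118-87964177. What these transcripts are, coding or not, cannot be read from the files.

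The pattern with CRL1506 + LPS was not limited to the proteasome. Over all genes with a symbol, 25.5% of 3796 other-transcript probes were at least 2-fold higher with CRL1506 + LPS, against 2.87% of 19677 RefSeq probes, and the 3 of 12 proteasome probes lie at that share. Other-transcript probes were also dimmer. Among probes dimmer than the 75th percentile the shares were 27.6% and 4.34%, and among brighter ones 15.6% and 1.46%, so that the difference was present in both ranges. With CRL1505 + LPS the 11 proteasome probes of this kind had a median of -0.10 and none was past 2-fold. Of 3139 such probes over all genes, 9.56% were at least 2-fold higher and 3.98% lower. Their median was 0.13, beside 0.03 for RefSeq probes, so that the low median was not shared by such probes over all genes. In 8 of 11 pairs with CRL1506 + LPS the other-transcript probe lay above the probe that stands for its gene, and in 8 of 10 pairs with CRL1505 + LPS it lay below. These pairs were counted for the proteasome genes only.

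**Figure D5:**
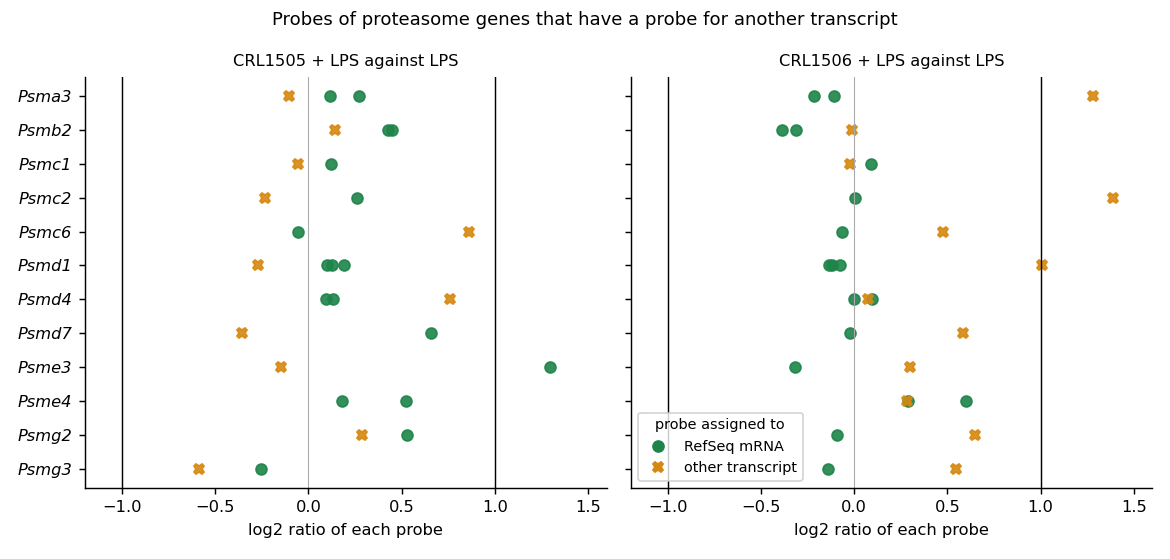
Log2 ratio to LPS of each probe of the 12 proteasome genes that have a measured probe for another transcript, with CRL1505 + LPS on the left and CRL1506 + LPS on the right. Green circles are RefSeq mRNA probes and orange crosses are other-transcript probes, and black lines mark 2-fold. On the right the crosses of Psma3, Psmc2 and Psmd1 lie past 2-fold while their circles lie near 0.

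Genes that act with the proteasome were read from lists. Of 9 proteasome-bound and assembly proteins 8 were measured, with a median of 0.09 with CRL1505 + LPS and -0.05 with CRL1506 + LPS, and Paaf1 had no probe under its name. The highest with CRL1505 + LPS were Ube3c, a ubiquitin ligase of the 19S particle (log2 ratio 0.86), and Txnl1, a thioredoxin-like protein bound to it (0.65). Over the settings tried, Ube3c ran from 0.35 to 1.15 with CRL1505 + LPS and from -0.25 to 0.69 with CRL1506 + LPS. The highest with CRL1506 + LPS was Ecpas, named AI314180 on the array, with 0.61, beside -0.12 with CRL1505 + LPS. Pomp, the maturation factor of the core, was level, with -0.02 and -0.05. The E1 enzymes Uba1 and Uba6, which activate ubiquitin, had log2 ratios of 0.25 and 0.55 with CRL1505 + LPS and of -0.09 and 0.03 with CRL1506 + LPS. Of 5 ubiquitin shuttles, which carry substrates to the 19S particle, 3 lay above 0 with CRL1505 + LPS and 1 with CRL1506 + LPS.

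Proteasome genes are known to be induced together by the transcription factor NRF1, encoded by Nfe2l1, when the proteasome is inhibited. Of the 7 genes of this axis, 1, Mafk, was at least 2-fold higher with CRL1505 + LPS, beside 9.93% of all genes, and none with CRL1506 + LPS. Nfe2l1 had log2 ratios of 0.39 and 0.05, and Mafk, a small MAF partner of NRF1, had 1.01 and 0.26, with the first falling to 0.50 under spike-in scaling. Mafg, another small MAF partner, lay on the other side of 0, with -0.23 and -0.19. Ngly1, the glycanase that processes NRF1, had 0.22 and -0.64, and Ddi2 and Vcp lay between -0.13 and 0.06 with either strain. Nfe2l2, which encodes the related factor NRF2, gave unscaled intensities of 16352, 7554 and 9958 with LPS, CRL1505 + LPS and CRL1506 + LPS. After scaling it was lower with both strains, with log2 ratios of -0.59 and -0.63, and level between them (0.03). Over the settings tried, the first ran from -1.10 to -0.30 and the second from -0.83 to -0.26. Both factors bind with small MAF proteins to the antioxidant response element, searched here on both strands as TGACNNNGC in RefSeq promoters of the build GRCm38.p6, from 250 bases before to 50 after the start site.

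A promoter was found for 36 of the 44 genes. The motif was in 6 of them (16.7%), beside 14.0% of the 27025 genes with a promoter, and the CCAAT box was in 13 (36.1%), beside 41.1% of all genes. Both shares are close to those of all genes in this window. The matches of Psmb5, Psmb6 and Psmd9, which begin 47, 9 and 31 bases before the start site, are printed on the gene strand as examples, with the motif in capitals.
Psmb5, chr14:54618023-54618052, minus strand: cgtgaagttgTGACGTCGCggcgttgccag
Psmb6, chr11:70525338-70525356, plus strand: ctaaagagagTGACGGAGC
Psmd9, chr5:123228149-123228178, plus strand: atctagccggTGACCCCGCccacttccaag
These 3 genes had log2 ratios of -0.19, 0.12 and -0.20 with CRL1505 + LPS and of 0.04, -0.02 and -0.25 with CRL1506 + LPS, and none reached 1.5-fold.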

How the data were processed

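Per the file headers, the authors scanned each array and extracted 1-colour (Cy3) intensities with Agilent Feature Extraction 12.0.3.1 (the study's text gives another version), which subtracts background and corrects spatial trends. The deposited table of normalized log2 values was used as an alternative; the submitters' processing notes name limma. The genome build of the probe positions is not given in the sources used here. 

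From the deposited processed intensities, outlier spots were left out, spots of a probe were averaged on the log2 scale and each array's 75th percentile was subtracted. The brightest probe stood for a gene. A gene was compared where its probe was well above background on at least 1 of the arrays, and medians were taken over genes above background on both. Genes past 2-fold or 1.5-fold were counted, with no test. Alternatives were computed in Python 3.11.15 and in R 4.3.3 with limma 3.58.1 (normexp with an offset of 50, quantile, cyclic loess). The number of arrays, 1 per condition, limits the precision. The comparison was tested on simulated data. The members and gene lists were chosen with earlier results of these data known. Full values are given for the catalytic subunits, the activators and inhibitor, the Psmg chaperones and each gene past 1.5-fold in any comparison, and the rest as ranges and examples. Some listed genes were left out of the analysis and are not reported here; other listed genes not named are given by counts, medians or ranges.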

Additional observations from a re-analysis of the deposited data

How the results depend on the processing

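No paired analysis was possible because each condition has 1 array, so that the conditions share fewer than 2 replicate numbers and no replicate could be left out. Of the 12 alternatives, 7 change the scaling or normalization. The count of proteasome genes past 2-fold with CRL1505 + LPS, 1 in the main setting, was 0 with spike-in scaling and with the mean over probes, 2 with no filter on dim probes and 2 at 1.5-fold. With CRL1506 + LPS it was 0, and 1 with no filter on dim probes. Between the strains it was 1, and became 9 with the median shift, 3 with no filter on dim probes, 0 with the mean over probes and 6 at 1.5-fold. The genes added by dropping the filter were Psma8 and Psmb11, which were below background throughout. The median log2 ratio of the proteasome genes became 0.46 with the median shift and -0.34 with spike-in scaling for CRL1505 + LPS against LPS, and 0.72 and -0.16 for CRL1505 + LPS against CRL1506 + LPS, each by moving all genes alike. Taking out the GC trend, chosen after seeing the data, takes off the median of all genes of like GC. It gave medians of 0.09, 0.01 and 0.15 for the 3 comparisons. With the median of all genes taken off instead, they were 0.11, 0.00 and 0.14, so that the GC trend changed them little. No member past 2-fold in the main setting changed sign; Psme3 with CRL1505 + LPS ranged from 0.57 with the mean over probes to 1.59 with the median shift. With 1 array per condition, differences below the spread between probes of a gene (median SD 0.23 and 0.21 over all genes with either strain) could not be resolved.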
